A study of Mus musculus with 12 samples.

Results

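Eosinophils of Atg5-knockout mice were compared between blood and bone marrow in 6 RNA-seq libraries, 3 from each tissue, out of the 12 libraries of the study. The libraries were chosen by their labels alone, as those marked Atg5 knockout, and of the 53801 genes in the count table the 13853 with enough counts for edgeR's filterByExpr were tested. The mice carried floxed Atg5 on both alleles (Atg5 flox/flox), eoCre, in which Cre is knocked into 1 allele of the eosinophil peroxidase gene Epx, and Il5tg, an interleukin-5 transgene driven by a T-cell promoter (Tg(Cd3d-Il5)) that raises eosinophil numbers. The study's controls, used here only for comparison, carried eoCre and Il5tg without floxed Atg5, so that eoCre, the lowered Epx dose and the excess of interleukin-5 were shared by all 12 libraries. Cre acts only once Epx is expressed, and cells that do not express it keep Atg5 intact. Ages of these animals, and whether a replicate number stands for 1 animal or a pool, are not given in the sources used here, so p-values measure the spread between these libraries. Marrow cells were flushed from femur and tibia, and blood cells were taken over a density gradient with lysis of red cells in water. Both then went through magnetic depletion of cells bearing CD8a, CD90.2, Ly6G and other surface antigens, so tissue and route of isolation cannot be told apart.

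Eosinophils arise in bone marrow from dividing precursors that make most of their granule proteins there, pack them into granules and leave for the blood as non-dividing cells. Interleukin-5 drives their growth and release, and integrins and chemokine receptors guide their exit and later entry into tissue. Autophagy encloses cytoplasm in membranes and delivers it to lysosomes, and ATG5 is part of the complex that attaches LC3 to those membranes. The comparison asks which genes and pathways differ between marrow and circulation when that complex is lacking.

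The targeted gene was read first. Atg5 (chromosome 10 from 44268358 to 44364291 on GRCm38) had 37.7, 53.7 and 53.7 CPM in blood and 31.0, 31.7 and 34.4 CPM in bone marrow. All blood libraries lay above all marrow libraries (log2 fold change 0.58, SE 0.16, edgeR adjusted p = 0.0166). Counts were summed over the whole gene, which includes exons outside the floxed part, so they do not show the deletion. Control blood libraries had 44.3, 57.6 and 39.1 CPM and control marrow libraries 40.7, 45.0 and 40.0 CPM. Knockout blood overlapped control blood, whereas knockout marrow lay below control marrow in all 3 libraries. The call for Atg5 was lost when any 1 of 3 libraries was left out (highest edgeR adjusted p = 0.0749) and with scaling by library size alone.

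Knockout blood libraries held 21985610 to 24067040 counts on genes and marrow libraries 25144161 to 28041757. Replicates differed by more than sampling noise (chi-square per degree of freedom up to 82.4, and above 10 in every pair), with Pearson's r of log2 CPM across genes of 0.946 to 0.966 between blood and 0.989 to 0.990 between marrow libraries. The first principal component separated the tissues with 73.1% of the variance. The second, with 15.5%, spread the 3 blood libraries apart, with blood replicate 1 at one end. Levels are given as CPM, counts scaled to library size with TMM factors, in the order of replicates 1, 2 and 3, and fold changes are blood over bone marrow.

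All 10 eosinophil marker genes had counts in these libraries, but their summed share of counts was 1.80%, 2.85% and 2.73% in blood and 10.2%, 8.68% and 9.65% in marrow, most of it from granule protein genes. Markers of other cell types were present in both tissues. Neutrophil markers took 2.32%, 1.42% and 1.27% of counts in blood and 2.49% to 3.07% in marrow, and monocyte and macrophage markers 0.312% to 0.343% and 0.329% to 0.371%. Primary granule precursor markers, a list of early myeloid genes, took 0.0399% to 0.0523% in blood and 0.409% to 0.619% in marrow. That list includes the ER chaperone gene Calr, which made up most of its share in blood. Calr had 410.0, 369 and 354 CPM in blood and 1397, 1639 and 1284 CPM in marrow. T and NK cell markers took 0.0370% to 0.0649% in blood and 0.00107% to 0.00138% in marrow. B cell markers took 0.288% in blood replicate 1 against 0.0600% and 0.0459% in the other two blood libraries and 0.0400% to 0.0416% in marrow. Red cell genes overlapped between tissues, at 0.422% to 0.731% in blood and 0.205% to 0.730% in marrow. Platelet markers took 0.00722% to 0.00897% and 0.0195% to 0.0242%, basophil and mast cell markers 0.0159% to 0.0272% and 0.0369% to 0.0431%, and stromal markers 0.000208% to 0.000344% and 0.00342% to 0.00376%. The integrin gene Itga2b made up 90.7% to 94.1% of the platelet share in marrow and 58.7% to 72.9% in blood, and without it the other platelet markers overlapped between tissues, at 0.00196% to 0.00371% in blood and 0.00130% to 0.00225% in marrow. Of all these markers the mast cell tryptase gene Tpsb2 alone had 0 counts in the 6 libraries. Where the tissues did not overlap, the exact two-sided permutation test gave p = 0.1 (0.122 adjusted over 11 lists), the smallest that 3 against 3 allows. In bulk samples fewer cells of a type and less of its RNA per cell cannot be told apart.

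**Figure D1:**
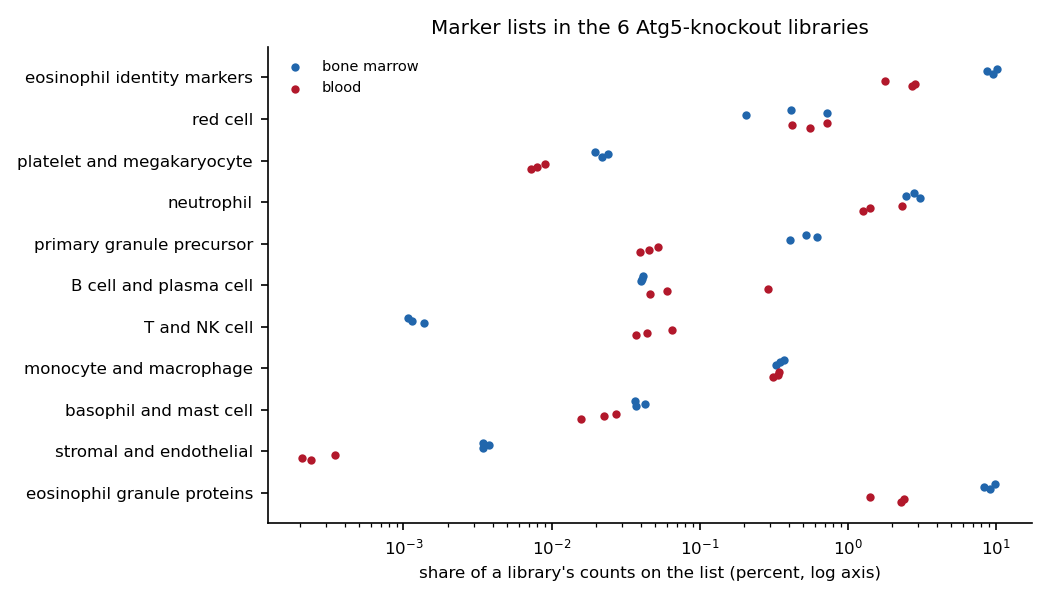
Percent of counts on each cell type's marker genes (log axis) in the 3 blood and 3 bone marrow libraries of Atg5-knockout mice, 1 point per library. Eosinophil markers sit at 1.80% to 2.85% in blood and 8.68% to 10.2% in marrow, and B cell markers are highest in blood replicate 1 at 0.288%.

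In blood 3256 genes were higher and 3336 lower than in marrow (23.5% and 24.1% of those tested, 47.6% in all, at an adjusted p under 0.05), and 729 and 849 of them by more than 4-fold (5.26% and 6.13%). The median log2 fold change of all tested genes was -0.01. With scaling by library size alone it was -0.24 and the calls split into 2258 higher and 4333 lower, so that 34.3% of calls were higher in place of 49.4%. Lists whose direction turns on that shift are named with their values below. Without blood replicate 1 the calls were 3684 higher and 4072 lower, and without marrow replicate 2 they were 2228 and 2356. No overlap between tissues was seen for 28.5% of genes on the higher and 31.5% on the lower side.

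Genes for the contents of the eosinophil's granules were the most abundant in marrow and were lower in blood. Of 13 listed granule protein genes 8 were tested and 7 were lower (87.5%, against 24.1% of all genes), with a median log2 fold change of -1.94. Prg2, the major basic protein and the gene of highest CPM in marrow, had 7243, 13956 and 12444 CPM in blood and 56317, 45100.1 and 53725 CPM in bone marrow. Every blood library lay far below every marrow library (log2 fold change -2.21, SE 0.25, edgeR adjusted p = 0.000178), a 4.61-fold lower level. Epx, eosinophil peroxidase, carried the largest difference of the list, with 273, 554 and 429.7 CPM in blood and 4979, 5116 and 4853 CPM in bone marrow (log2 fold change -3.57, SE 0.25, edgeR adjusted p = 1.31e-05). Its blood and marrow values did not overlap, and it was 11.9-fold lower. Prg3, a second major basic protein, was lower by 6.14-fold (edgeR adjusted p = 6.66e-05). Among the eosinophil-associated ribonucleases, Ear2, Ear6, Ear1 and Ear10 had log2 fold changes of -1.83, -1.15, -1.07 and -1.37. Reads of these near-identical genes can be shared, so single Ear values are uncertain. Rnase2a, at under 2 CPM everywhere, had -2.05 and did not pass. Of the other listed genes 2 had too few counts to be tested and 3 were not matched by name and not analysed here. Blood replicate 1 was lowest for Epx, Prg2, Prg3 and Ear2, and without it the list's median was -1.60 with 8 of 8 members lower.

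Surface markers of eosinophils did not share that pattern. Siglecf, an inhibitory lectin used to sort eosinophils, had 608, 804 and 921 CPM in blood and 392, 350.3 and 411 CPM in bone marrow (log2 fold change 1.02, SE 0.17, edgeR adjusted p = 0.00126), and Ccr3, the eotaxin receptor, had 1054, 1575 and 2022 CPM in blood and 731, 595 and 861 CPM in bone marrow (log2 fold change 1.09, SE 0.24, edgeR adjusted p = 0.00529). Both were higher in every blood library than in any marrow library. Il5ra, the interleukin-5 receptor chain, and the lipoxygenase gene Alox15 had log2 fold changes of -0.33 and -0.30 and did not pass, with overlapping libraries.

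**Figure D2:**
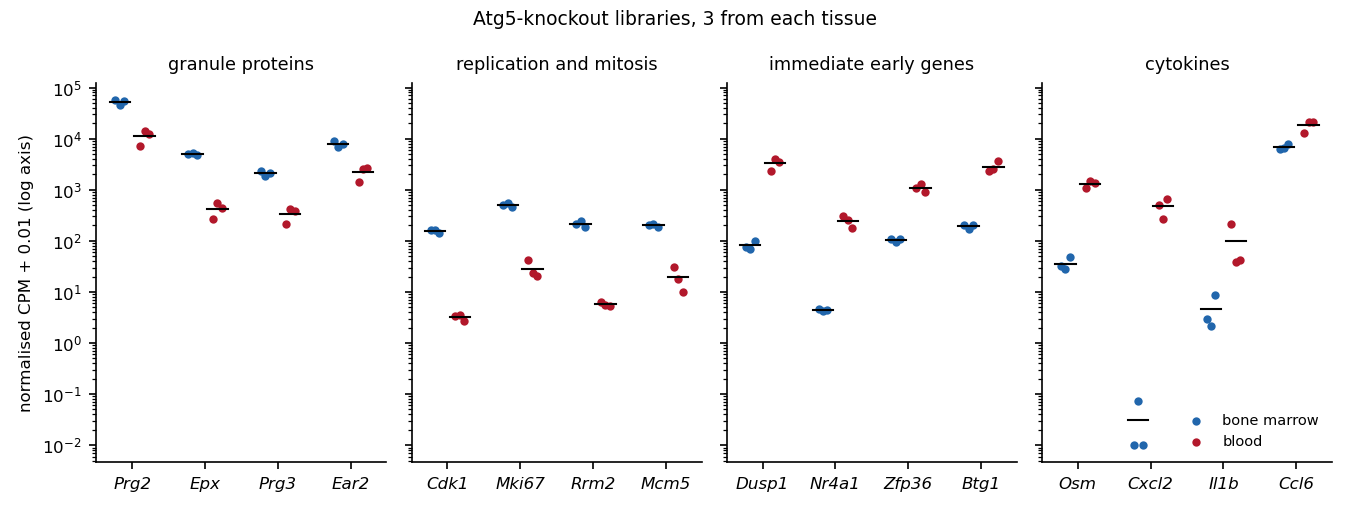
CPM plus 0.01 on a log axis in each Atg5-knockout library for 16 genes of 4 groups, 1 point per library and a line at the mean, with bone marrow in blue and blood in red. Granule and cell division genes lie lower in blood and response genes such as Cxcl2 and Osm lie higher, with no overlap between the tissues for those genes.

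Genes of the secretory route were lower with the granule genes. In the list of endoplasmic reticulum secretion and the unfolded protein response, 25 of 40 tested members were lower and 4 higher. Their shares were 62.5% and 10%, against 24.1% and 23.5% of all genes, and the median log2 fold change was -0.58. Rpn1, a subunit of the enzyme that attaches N-glycans, had 96.9, 88.0 and 82.9 CPM in blood and 345, 355 and 294 CPM in bone marrow (log2 fold change -1.89, SE 0.13, edgeR adjusted p = 1.13e-05). Calr, the lectin chaperone calreticulin, had 410.0, 369 and 354 CPM in blood and 1397, 1639 and 1284 CPM in bone marrow (log2 fold change -1.93, SE 0.14, edgeR adjusted p = 1.65e-05). Libraries of the 2 tissues were well apart for both. Sdf2l1 and Pdia6, a chaperone cofactor and a disulfide isomerase, had log2 fold changes of -1.97 ± 0.18 and -1.52 ± 0.15 (SE). Hspa5, the ER chaperone BiP, did not pass at -0.26, with overlapping libraries. The 4 members that were higher included Xbp1, the transcription factor of this response (0.99), and the co-chaperone Dnajb9 (1.13). The highest adjusted p for Xbp1 was 0.0527 when 1 library was left out, so its call was lost there. The primary granule precursor markers were lower in blood too, and their part in the difference was not tested. Calr belongs to both lists, so the 2 are not independent.

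Genes of DNA replication were lower in blood nearly throughout. Of 40 tested members 39 were lower (97.5%, against 24.1% of all genes) and none was higher. The median log2 fold change was -3.23. Rrm2, the regulated subunit of ribonucleotide reductase, had 6.30, 5.55 and 5.18 CPM in blood and 213, 239.7 and 186 CPM in bone marrow (log2 fold change -5.23, SE 0.16, edgeR adjusted p = 3.41e-07). Cdc45, part of the replicative helicase, had 4.14, 4.44 and 2.88 CPM in blood and 62.3, 66.6 and 52.7 CPM in bone marrow (log2 fold change -3.98, SE 0.20, edgeR adjusted p = 1.73e-06). Marrow libraries were above blood libraries by more than 10-fold in each pairing for both genes. Tk1, thymidine kinase, and Dut, which removes dUTP, had log2 fold changes of -4.36 ± 0.25 and -3.71 ± 0.20 (SE). The 6 subunits of the replicative helicase ring lay between Mcm3 at -3.37 and Mcm4 at -1.68, and Mcm10 at -6.11 was the lowest of the list. Without blood replicate 1 Mcm10 was at -7.55. Rfc2, a clamp loader subunit, was the 1 member that did not pass, at 0.00. Pcna, the sliding clamp, was lower by 2.49-fold, less than most of the list. Primary granule precursor markers (0.0399% to 0.0523% of counts in blood and 0.409% to 0.619% in marrow) and the red cell precursor genes Klf1 (-5.45) and Rhag (-4.24) were lower in blood as well, and their part in the difference was not tested. Most of that marker share in blood came from the ER chaperone gene Calr.

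Mitotic genes differed more. Of 40 tested members 39 were lower (97.5%, against 24.1% of all genes) and 1 was higher. The median log2 fold change was -4.64, the lowest of the pathway lists. Cdk1, the kinase that starts mitosis, had 3.44, 3.51 and 2.67 CPM in blood and 165, 162 and 142 CPM in bone marrow (log2 fold change -5.60, SE 0.17, edgeR adjusted p = 3.41e-07). Ube2c, the ubiquitin-conjugating enzyme of the anaphase-promoting complex, had 7.84, 8.14 and 7.22 CPM in blood and 182, 199 and 160.1 CPM in bone marrow (log2 fold change -4.54, SE 0.15, edgeR adjusted p = 3.41e-07). Blood libraries were close to one another and far below marrow for both. Tpx2, a spindle assembly factor, and Ccnb2, a mitotic cyclin, had log2 fold changes of -5.23 ± 0.18 and -3.94 ± 0.14 (SE). Ncapg, a condensin subunit, had 0.969, 0.370 and 0.0523 CPM in blood and 32.3, 41.4 and 39.1 CPM in bone marrow, and its log2 fold change of -6.27 became -7.38 without blood replicate 1, the highest of the blood libraries. Mki67, the gene of the proliferation antigen Ki-67, was 17.6-fold lower (edgeR adjusted p = 9.98e-06). Pttg1, securin, was the exception at 1.59 ± 0.20 (SE), with 64.6, 93.3 and 80.1 CPM in blood and 33.3, 24.5 and 21.4 CPM in marrow. Outside the lists, Hrob, Lrr1, Mtfr2, Ccnf and Melk stood among the 12 lowest fold changes of all genes with at least 10 CPM in the higher tissue. Hrob and Lrr1 act at the replicative helicases, Ccnf is a cyclin that marks proteins for degradation and Melk is a mitotic kinase. Their log2 fold changes were -7.07, -6.82, -6.80, -6.42 and -6.27, and without blood replicate 1 Lrr1, at 0 in the other two blood libraries, was at -11.15 and Ccnf at -7.42. Crhbp, which binds corticotropin-releasing hormone, was at -6.67, or -8.38 without blood replicate 1. The same precursor markers moved with the mitotic list, and their part was not tested there either.

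Promoters of these genes were searched for short motifs that are read by cell cycle regulators. The cell cycle homology element TTTGAA, bound by the DREAM and MuvB complexes, was found on either strand within 250 bases before the start in 15 of 36 windows of 34 mitosis members (41.7%) and in 5252 of all 32851 windows. The motif CCAAT, bound by NF-Y, was in 28 of 36 (77.8% against 33.8%). In DNA replication genes the E2F-type motif GCGGGAA was in 10 of 37 windows of 32 members (27.0% against 3.82%). The GATA-type motif AGATAA, sought in the same way in granule protein genes, was in 0 of 7 windows of 7 members, against 9.99% of all windows. These matches are a description of the letters in the window. The stretches below show 3 mitotic and 2 replication promoters, 150 bases up to the RefSeq start on GRCm38.p6, 5′ to 3′ on the gene's strand, with the motifs in capitals on either strand, so that CCAAT can read ATTGG. In the replication promoters GCGGGAA can read TTCCCGC. They lie at chr5:45669775-45669924 (plus strand) for Ncapg, chr10:69352913-69353062 (minus strand) for Cdk1, chr4:118437344-118437493 (minus strand) for Cdc20, chr17:56040266-56040415 (plus strand) for Chaf1a and chr11:98908001-98908150 (plus strand) for Cdc6.
Ncapg: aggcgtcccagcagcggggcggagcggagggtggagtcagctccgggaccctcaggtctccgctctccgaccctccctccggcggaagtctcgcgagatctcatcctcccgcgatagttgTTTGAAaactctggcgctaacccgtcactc
Cdk1: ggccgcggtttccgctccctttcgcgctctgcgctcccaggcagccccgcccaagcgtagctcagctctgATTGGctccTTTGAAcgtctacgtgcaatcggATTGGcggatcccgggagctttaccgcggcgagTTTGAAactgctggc
Cdc20: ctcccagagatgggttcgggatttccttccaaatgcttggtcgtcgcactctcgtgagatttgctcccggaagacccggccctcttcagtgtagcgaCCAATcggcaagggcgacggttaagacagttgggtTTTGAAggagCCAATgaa
Chaf1a: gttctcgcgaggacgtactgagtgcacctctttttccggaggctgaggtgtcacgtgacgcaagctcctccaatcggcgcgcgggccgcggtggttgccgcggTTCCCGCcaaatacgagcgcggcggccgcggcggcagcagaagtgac
Cdc6: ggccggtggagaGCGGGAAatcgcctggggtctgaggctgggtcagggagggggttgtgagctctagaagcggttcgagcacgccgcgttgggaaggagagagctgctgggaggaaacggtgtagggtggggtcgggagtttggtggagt
Ncapg and Cdk1, described above, both hold TTTGAA close to the start. Cdc20, the activator of the anaphase-promoting complex, had a log2 fold change of -5.32, and the replication genes Chaf1a and Cdc6, a histone chaperone subunit and an origin loading factor, had -4.88 and -3.93.

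Primary granule genes of early granulocyte precursors held 5 of the 12 lowest fold changes. Of 10 listed genes, Calr among them, 9 were lower (90%, against 24.1% of all genes), with a median log2 fold change of -5.79. Elane, neutrophil elastase, had 0.837, 0.878 and 0.523 CPM in blood and 678, 802 and 491 CPM in bone marrow (log2 fold change -9.76, SE 0.30, edgeR adjusted p = 3.41e-07), a 866-fold lower level in blood. Mpo, myeloperoxidase, had 5.24, 8.69 and 6.22 CPM in blood and 1382, 1577 and 1048 CPM in bone marrow (log2 fold change -7.63, SE 0.28, edgeR adjusted p = 5.80e-07). Blood libraries stayed under 10 CPM for both, and marrow libraries were all far above. Prtn3 and Ctsg, granule proteases, and Ms4a3, a membrane protein of granulocyte progenitors, had log2 fold changes of -7.61, -7.07 and -8.25 (without blood replicate 1, -7.64, -6.95 and -7.68). Nkg7, also a gene of cytotoxic lymphocytes, was the 1 member that did not pass, at -0.17. Secondary granule genes of neutrophils were lower to a smaller degree: Camp had 294, 183 and 95.9 CPM in blood and 1570.5, 1432 and 1537 CPM in bone marrow (log2 fold change -2.99, SE 0.35, edgeR adjusted p = 0.000196), and Ltf and Ngp had log2 fold changes of -1.63 and -0.94. Of 14 neutrophil markers 6 were lower and 3 higher (42.9% and 21.4%, against 24.1% and 23.5% of all genes). Higher members included the gelatinase Mmp9, with 929, 617 and 724 CPM in blood and 301, 285 and 545 CPM in bone marrow. Retnlg was higher too (0.67), and both of these calls were lost when 1 library was left out (highest edgeR adjusted p = 0.0621 and 0.114). The remaining higher member had the list's highest log2 fold change, 2.08. Whether these genes were read from eosinophil precursors or from other cells was not tested.

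Transcription factors of granulocyte development differed in both directions, with 11 of 26 higher and 7 lower. Their shares were 42.3% and 26.9%, against 23.5% and 24.1% of all genes, so the lower side was near that of all genes. Myb, a factor of immature progenitors, had 6.96, 4.90 and 2.88 CPM in blood and 96.4, 102 and 76.6 CPM in bone marrow (log2 fold change -4.21, SE 0.29, edgeR adjusted p = 1.10e-05). Gfi1, a repressor of early granulopoiesis, had a log2 fold change of -3.57 ± 0.32 (SE), and Cebpe, needed for granule formation, -0.97 ± 0.18. Marrow was above blood in all pairings for these 3. Gata2 was lower at -0.77, whereas Gata1, the factor of the eosinophil lineage, overlapped between tissues at 0.13. In the other direction Cebpb, a C/EBP factor of inflammatory granulopoiesis, had 663, 774 and 904 CPM in blood and 31.4, 34.0 and 55.8 CPM in bone marrow (log2 fold change 4.27, SE 0.26, edgeR adjusted p = 5.17e-06). Blood libraries were far above marrow, by 19.3-fold on average. Nfil3, a bZIP factor, and Klf2, a factor that holds leukocytes quiescent, were higher at 1.97 ± 0.15 and 2.71 ± 0.25 (SE). Spi1, the myeloid factor PU.1, was higher at 0.89.

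Ribosome biogenesis and ribosomal protein genes differed in opposite ways. Of 40 tested biogenesis genes 28 were lower (70%, against 24.1% of all genes) and none was higher. Their median log2 fold change was -0.75. Dkc1, the pseudouridine synthase of small nucleolar particles, had 18.8, 13.8 and 13.9 CPM in blood and 57.7, 65.3 and 52.4 CPM in bone marrow (log2 fold change -1.91, SE 0.17, edgeR adjusted p = 4.10e-05). Wdr12 and Nop56, which act in processing of ribosomal RNA, had -1.86 ± 0.20 and -1.51 ± 0.17 (SE). In contrast 30 of 78 tested cytosolic ribosomal protein genes were higher and 3 lower, with a median of 0.28. Their shares were 38.5% and 3.85%, against 23.5% and 24.1% of all genes. Rps27 had 2474, 2762 and 2943 CPM in blood and 1025, 683 and 1014 CPM in bone marrow (log2 fold change 1.59, SE 0.18, edgeR adjusted p = 0.000183), with no overlap, while Rps2 was lower at -0.89 ± 0.17 (SE). The counts for ribosomal proteins rest on the scaling, since library size alone gave 17 higher and 11 lower with a median of 0.05. Many ribosomal protein genes have near-identical pseudogenes, so that reads with several matching places are not in these counts.

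Genes of energy metabolism were mixed. In glycolysis 10 of 24 members were lower and 3 higher (41.7% and 12.5%, against 24.1% and 23.5% of all genes). Tpi1, triosephosphate isomerase, had 194, 246 and 199 CPM in blood and 567, 511 and 542 CPM in bone marrow (log2 fold change -1.34, SE 0.14, edgeR adjusted p = 8.91e-05), and Pfkl, a phosphofructokinase, -1.17 ± 0.11 (SE). Slc16a1, a lactate and pyruvate transporter, was lower at -3.05 ± 0.26. Eno3, an enolase of muscle, was higher at 3.28 ± 0.24, with 34.3, 33.8 and 23.5 CPM in blood and 3.97, 2.78 and 2.66 CPM in marrow, and the glucose transporters Slc2a1 and Slc2a3 were higher at 0.79 and 0.67. Of 63 nuclear genes of the respiratory chain and ATP synthase 13 were lower and 5 higher (20.6% and 7.94%, both under the 24.1% and 23.5% of all genes), with a median of -0.03 that moved to -0.26 with library size alone and 0.08 without blood replicate 1. Cycs, cytochrome c, was lower at -0.90 ± 0.15 and Ndufa6, a complex I subunit, higher at 1.09 ± 0.20 (SE). Genes of the mitochondrial chromosome took 1.28% to 1.73% of counts in blood and 0.808% to 0.961% in marrow, without overlap.

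In haem synthesis and iron uptake 7 of 16 members were lower and 1 higher (43.8% and 6.25%, against 24.1% and 23.5% of all genes). Alas1, the first enzyme of haem synthesis outside red cells, had 109, 127 and 83.5 CPM in blood and 352, 323 and 339 CPM in bone marrow (log2 fold change -1.67, SE 0.16, edgeR adjusted p = 7.22e-05). Tfrc, the transferrin receptor, had -1.55 ± 0.17 (SE). Fth1, the iron-storing ferritin heavy chain, was the 1 member that was higher, with 1794, 2050.4 and 2832 CPM in blood and 777, 697 and 745 CPM in bone marrow (log2 fold change 1.59, SE 0.18, edgeR adjusted p = 0.000179). Blood libraries were all above marrow for Fth1 and all below it for Alas1. In cholesterol synthesis 6 of 23 tested members were lower and 2 higher (26.1% and 8.70%, against 24.1% and 23.5% of all genes), with a median of -0.36, or -0.05 without blood replicate 1. Srebf2, the regulator of the pathway, was among the higher ones at 0.66.

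Arginine and polyamine metabolism was lower in most of its genes, with 11 of 17 tested members lower and 3 higher. Their shares were 64.7% and 17.6%, against 24.1% and 23.5% of all genes, and the median was -0.85. Amd1 and Srm, which make spermidine, had log2 fold changes of -1.94 ± 0.15 and -2.08 ± 0.22 (SE), and Azin1, which protects ornithine decarboxylase, -1.34 ± 0.17. Gatm, the first enzyme of creatine synthesis, had 6.43, 6.19 and 9.99 CPM in blood and 49.4, 64.7 and 49.4 CPM in bone marrow (log2 fold change -2.86, SE 0.22, edgeR adjusted p = 2.06e-05). All of these were lower in every blood library than in any marrow library. Arg2, mitochondrial arginase, was higher in blood, with 50.9, 88.1 and 80.5 CPM in blood and 26.7, 26.9 and 30.0 CPM in bone marrow (log2 fold change 1.39, SE 0.20, edgeR adjusted p = 0.000596). In control mice Arg2 was at 1.13 to 2.25 CPM in blood and 1.49 to 1.54 CPM in marrow, with a log2 fold change of 0.19 ± 0.40 (SE, edgeR adjusted p = 0.743). The difference between the genotypes' tissue effects for Arg2 was 1.16 on the log2 scale and did not pass (edgeR adjusted p = 0.852).

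Autophagy genes were higher in blood more often than lower. Of 44 members 21 were higher and 8 lower (47.7% and 18.2%, against 23.5% and 24.1% of all genes), with a median log2 fold change of 0.25. With library size alone the counts were 11 and 10 and the median 0.03. In control mice 14 members were higher and 3 lower, with a median of 0.27. Map1lc3b, the LC3 protein that marks autophagosomes and is attached by the ATG5 complex, had 405, 461 and 514 CPM in blood and 152, 139.9 and 159 CPM in bone marrow (log2 fold change 1.61, SE 0.13, edgeR adjusted p = 2.99e-05), a 3.06-fold higher level. Map1lc3a and Gabarap, of the same family, had 1.37 ± 0.16 and 0.92 ± 0.16 (SE). Sqstm1, the cargo receptor p62, had 433, 538 and 597 CPM in blood and 256, 224 and 259 CPM in bone marrow (log2 fold change 1.09, SE 0.15, edgeR adjusted p = 0.000464). No blood library overlapped with marrow for these 4. Uvrag, a partner of the lipid kinase Vps34, was at 1.40 ± 0.14, the cargo receptor Calcoco1 at 1.06 ± 0.14, the conjugating enzyme Atg7 at 0.77 ± 0.11 and the regulator Tfeb at 0.91 ± 0.15 (SE). The members that were lower included the LC3-cleaving protease Atg4c (-1.95) and the cargo receptor Optn (-1.72). Atg12 and Atg16l1, the partners of ATG5 in its complex, had 0.36 and -0.13 and did not pass.

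**Figure D3:**
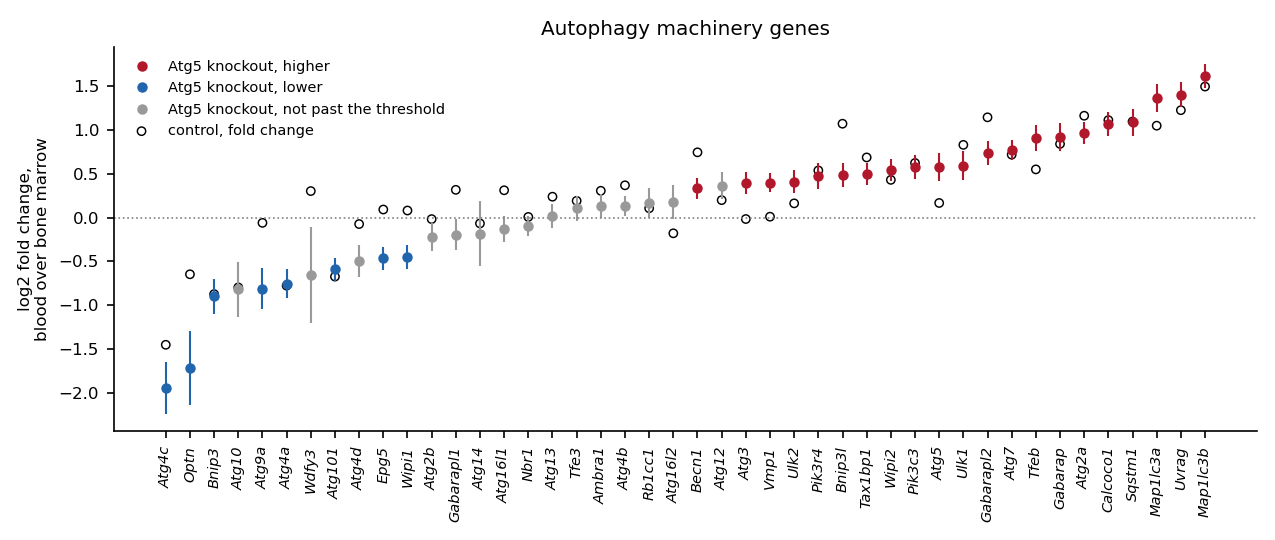
Log2 fold change, blood over bone marrow, of each tested autophagy gene in Atg5-knockout mice, with bars of 1 standard error from edgeR, coloured by call, and open circles for the fold change in control mice. Map1lc3b at 1.61 is the highest and Atg4c at -1.95 the lowest of the 44 members.

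Among lysosomal genes 16 of 46 were higher and 6 lower, with a median of 0.15. Library size alone turned the median to -0.08 with 10 higher and 9 lower. Lgmn, the protease legumain, had 75.7, 59.4 and 57.4 CPM in blood and 18.7, 23.7 and 20.2 CPM in bone marrow (log2 fold change 1.62, SE 0.16, edgeR adjusted p = 7.69e-05). The proteases Ctsa and Ctss had 1.15 ± 0.12 and 1.21 ± 0.16 (SE). Ctsd, cathepsin D, was 2.15-fold higher (edgeR adjusted p = 0.000783). All these were higher in each blood library than in each marrow library. The proton pump subunits Atp6v0a1, Atp6v1c1 and Atp6v1a were lower at -0.91, -0.62 and -0.39, whereas Atp6v0c and Atp6v0d1 of the same pump were higher at 0.63 and 0.57.

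Integrins and selectin-related adhesion genes were higher in blood, with a median of 0.71. Of 28 tested members 18 were higher and 3 lower (64.3% and 10.7%, against 23.5% and 24.1% of all genes). Itgal, the alpha chain of LFA-1, had 919.5, 946 and 907 CPM in blood and 202, 198 and 212 CPM in bone marrow (log2 fold change 2.18, SE 0.12, edgeR adjusted p = 2.69e-06). Itga4, the chain of VLA-4 that binds VCAM-1, had 498, 480.2 and 570.2 CPM in blood and 104, 114 and 135 CPM in bone marrow (log2 fold change 2.13, SE 0.14, edgeR adjusted p = 1.03e-05). Replicates agreed closely within a tissue and the tissues were 4.52-fold and 4.38-fold apart. Itgax, the CD11c chain, and Itgam, the CD11b chain, were higher at 2.79 ± 0.17 and 1.38 ± 0.20 (SE), and Cd44, the hyaluronan receptor, at 1.47 ± 0.18. Vcam1 was lower at -4.67 ± 0.52, with 1.63, 9.80 and 9.73 CPM in blood and 160.3, 194 and 181 CPM in marrow. Itga2b, the platelet integrin chain, was lower at -1.66 ± 0.13 (SE), whereas the other 10 tested platelet markers had a median of 0.80.

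Of 26 tested chemoattractant receptors 9 were higher and 5 lower (34.6% and 19.2%, against 23.5% and 24.1% of all genes). The median was 0.12, or -0.12 with library size alone and -0.05 without blood replicate 1. Ccrl2, a receptor that binds chemerin without signalling, had 109, 99.8 and 159.8 CPM in blood and 3.42, 3.84 and 3.74 CPM in bone marrow (log2 fold change 5.06, SE 0.22, edgeR adjusted p = 9.87e-07). C5ar1, the receptor for complement C5a, had 1.61 ± 0.20 and Gpr35 1.15 ± 0.16 (SE). Blood was above marrow in every pairing for these. Cx3cr1, a receptor of monocytes, was higher at 1.43 ± 0.16. Cxcr4, which retains cells in marrow, overlapped between tissues at 0.48 and did not pass. S1pr1, the egress receptor of lymphocytes, had 69.2, 5.69 and 8.52 CPM in blood, and Ccr7, the homing receptor of lymphocytes, 56.3, 3.37 and 3.50 CPM, both led by blood replicate 1. Without that library their log2 fold changes went from 3.85 to 1.88 and from 5.21 to 2.60, and B cell markers were highest in the same library.

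Cytokine receptors and the JAK-STAT pathway were higher more often than lower. Of 29 tested cytokine receptors 12 were higher and 5 lower (41.4% and 17.2%, against 23.5% and 24.1% of all genes). Il4ra, the shared chain of the interleukin-4 and interleukin-13 receptors, had 276, 210.3 and 355 CPM in blood and 49.6, 47.4 and 60.3 CPM in bone marrow (log2 fold change 2.42, SE 0.20, edgeR adjusted p = 3.11e-05), and Csf1r, the receptor of macrophage growth factor, 880.4, 891 and 803 CPM in blood and 274, 249 and 293 CPM in bone marrow (log2 fold change 1.66, SE 0.13, edgeR adjusted p = 1.83e-05). Both were higher in every blood library. Tnfrsf1b, a TNF receptor, was at 1.30 ± 0.11 (SE). Kit, the stem cell factor receptor, was lower at -1.98 ± 0.18, and so was Il17rb, at -3.03 ± 0.59 and under 3 CPM. Csf1r is also on the monocyte and macrophage marker list and Kit on the primary granule precursor list. These lists are therefore not independent, and the part of other cells was not tested. The common beta chains Csf2rb and Csf2rb2, which carry the interleukin-5 signal, had 0.02 and 0.41 and did not pass. In the JAK-STAT list 11 of 24 were higher and 4 lower (45.8% and 16.7%, against the same shares of all genes). The median was 0.22, or -0.0067 with library size alone. Pim3 and Pim1, survival kinases induced by cytokines, had 3.90 ± 0.17 and 3.02 ± 0.19 (SE). Pim1 had 2136, 2087 and 2825 CPM in blood and 254, 269 and 344 CPM in bone marrow, without overlap. The feedback inhibitors Socs2, Socs3, Socs1 and Cish were all higher, at 2.22, 2.11, 1.42 and 1.33, and Jak1 at 1.14 ± 0.11.

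Immediate early genes, which are switched on within minutes of a stimulus, were higher in blood. Of 34 tested members 29 were higher, where 23.5% of all genes were, and none was lower, with a median log2 fold change of 3.06. Nr4a1, an orphan nuclear receptor, had 308, 253 and 175 CPM in blood and 4.66, 4.22 and 4.41 CPM in bone marrow (log2 fold change 5.79, SE 0.24, edgeR adjusted p = 8.56e-07). Egr1, a zinc finger factor, had 91.4, 73.8 and 87.4 CPM in blood and 6.69, 7.23 and 7.59 CPM in bone marrow (log2 fold change 3.55, SE 0.15, edgeR adjusted p = 8.56e-07). Marrow libraries were all under 10 CPM for both, and every blood library was far above them. Junb and Jund of the AP-1 family had 3.50 ± 0.15 and 2.80 ± 0.13 (SE), and Fos and Fosb 4.38 ± 0.21 and 6.40 ± 0.56. Dusp1, a phosphatase that ends MAP kinase signals, was 39.7-fold higher, with 2305, 3973 and 3501 CPM in blood and 75.1, 70.6 and 101 CPM in bone marrow. Egr2, Egr3, Klf4, Gadd45b and Nr4a2 did not pass. These genes also answer to the handling of cells, and blood and marrow were handled differently, so tissue and isolation cannot be told apart here either.

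Targets of NF-kappaB followed the same direction, with 31 of 40 higher, 1 lower and a median of 1.48. Their shares were 77.5% and 2.5%, against 23.5% and 24.1% of all genes. The higher members include Ccl5 (7.74), a chemokine of NK and T cells given below with lymphocyte genes. Cxcl2, a chemokine for neutrophils, was the gene of highest fold change in the comparison. It had 501, 266 and 660.1 CPM in blood and 0, 0.0640 and 0 CPM in bone marrow, from 29757 counts in blood and 2 in marrow, a ratio of 20386 with a 95% counting interval from 5643 to 168343. Cxcl3, a related chemokine, had 12.5, 9.11 and 25.2 CPM in blood and 0, 0.0320 and 0 CPM in bone marrow, from 962 and 1 counts, a ratio of 1318 (95% counting interval 236 to 52116). Both had next to no counts in marrow, and these intervals cover counting error only. Ptgs2, cyclooxygenase 2, had 20.0, 7.26 and 19.0 CPM in blood and 0.138, 0.0640 and 0.0374 CPM in bone marrow (log2 fold change 7.50, SE 0.59, edgeR adjusted p = 2.16e-05). Tnfaip3, the inhibitor A20, had 567, 518 and 622 CPM in blood and 54.2, 55.9 and 66.5 CPM in bone marrow (log2 fold change 3.27, SE 0.15, edgeR adjusted p = 1.09e-06). Nfkbia, the inhibitor that holds NF-kappaB in the cytoplasm, was higher at 2.16 ± 0.23 and Cd83 at 5.79 ± 0.36 (SE). Bcl2a1b and Bcl2a1d, survival genes of 1 near-identical family, were at 2.36 and 2.32, and single values are uncertain there. Tnf itself was the lower member, with 2.38, 2.54 and 1.41 CPM in blood and 10.1, 6.11 and 7.03 CPM in bone marrow (log2 fold change -1.87, SE 0.33, edgeR adjusted p = 0.00171).

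Promoters of both lists were searched for motifs of factors known to read such genes. The palindrome TGACGTCA, bound by CREB and ATF factors, was in 4 of 38 windows of 29 immediate early members (10.5% against 1.55% of all windows), while the AP-1 motif TGANTCA was in 2 of 38 (5.26% against 6.75%). The NF-kappaB motif (GGGA, any 1 base and then TTTCC) was in 4 of 42 windows of 31 target members (9.52% against 0.356%). The 5 stretches below, again 150 bases up to the RefSeq start on GRCm38.p6 on the gene's strand, show the genes of both lists in which the match lay nearest to the start or the fold change was largest, with the motif in capitals on either strand. They lie at chr5:90903749-90903898 (plus strand) for Cxcl2, chr5:90785951-90786100 (plus strand) for Cxcl3, chr12:55492648-55492797 (minus strand) for Nfkbia, chr17:26508473-26508622 (minus strand) for Dusp1 and chr7:45526269-45526418 (minus strand) for Ppp1r15a.
Cxcl2: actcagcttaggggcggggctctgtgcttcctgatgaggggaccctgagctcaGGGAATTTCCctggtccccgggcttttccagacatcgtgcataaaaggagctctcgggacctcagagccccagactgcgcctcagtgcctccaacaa
Cxcl3: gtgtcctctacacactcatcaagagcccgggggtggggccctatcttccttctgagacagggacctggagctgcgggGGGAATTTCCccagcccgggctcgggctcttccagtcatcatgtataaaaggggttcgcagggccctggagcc
Nfkbia: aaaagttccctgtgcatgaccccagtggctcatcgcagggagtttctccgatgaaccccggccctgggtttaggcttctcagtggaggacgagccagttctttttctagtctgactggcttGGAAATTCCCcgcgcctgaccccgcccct
Dusp1: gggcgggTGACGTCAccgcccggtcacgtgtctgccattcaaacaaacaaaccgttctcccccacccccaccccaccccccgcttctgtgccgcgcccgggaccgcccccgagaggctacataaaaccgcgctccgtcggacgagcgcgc
Ppp1r15a: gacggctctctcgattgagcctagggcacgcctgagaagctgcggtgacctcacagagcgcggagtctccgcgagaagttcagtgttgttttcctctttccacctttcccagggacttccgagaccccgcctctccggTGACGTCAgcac
Ppp1r15a, the phosphatase subunit GADD34 that restarts translation after stress, had a log2 fold change of 3.52 ± 0.25 (SE).

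Cytokines and growth factors were higher in blood in 22 of 36 tested members and lower in 3. Their shares were 61.1% and 8.33%, against 23.5% and 24.1% of all genes. Ccl5, given below with lymphocyte genes, is among the higher members of this list too. Osm, oncostatin M, had 1082, 1487 and 1379 CPM in blood and 31.5, 27.8 and 48.4 CPM in bone marrow (log2 fold change 5.20, SE 0.26, edgeR adjusted p = 1.67e-06). Hbegf, a ligand of the EGF receptor, had 74.3, 102 and 103 CPM in blood and 9.94, 8.74 and 12.6 CPM in bone marrow (log2 fold change 3.16, SE 0.20, edgeR adjusted p = 6.35e-06). Both were higher in every blood library, Osm by 36.6-fold on average. Vegfa, the vascular growth factor, Pdgfb and the interleukin-6 family cytokine Lif were higher at 2.52 ± 0.28, 3.24 ± 0.47 and 4.41 ± 0.49 (SE), and Ccl6, the gene of highest CPM in blood, at 1.43 ± 0.22. Il4, a cytokine that eosinophils hold ready, was higher at 1.25 ± 0.25, with 76.6, 154 and 114 CPM in blood and 51.2, 38.3 and 55.8 CPM in bone marrow. Il13 did not pass at -0.90, with overlapping libraries. Il5, whose transcripts include those of the transgene, had 293, 359.8 and 242 CPM in blood and 274, 268 and 315 CPM in bone marrow and did not pass at 0.06. Il1b had 217, 39.1 and 41.2 CPM in blood and 2.90, 2.14 and 8.86 CPM in bone marrow, highest in blood replicate 1, where neutrophil markers were also highest. Its log2 fold change was 4.43, and 3.12 without that library. Il6 was lower at -1.03 and under 7 CPM, a call lost when 1 library was left out (highest edgeR adjusted p = 0.093).

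**Figure D4:**
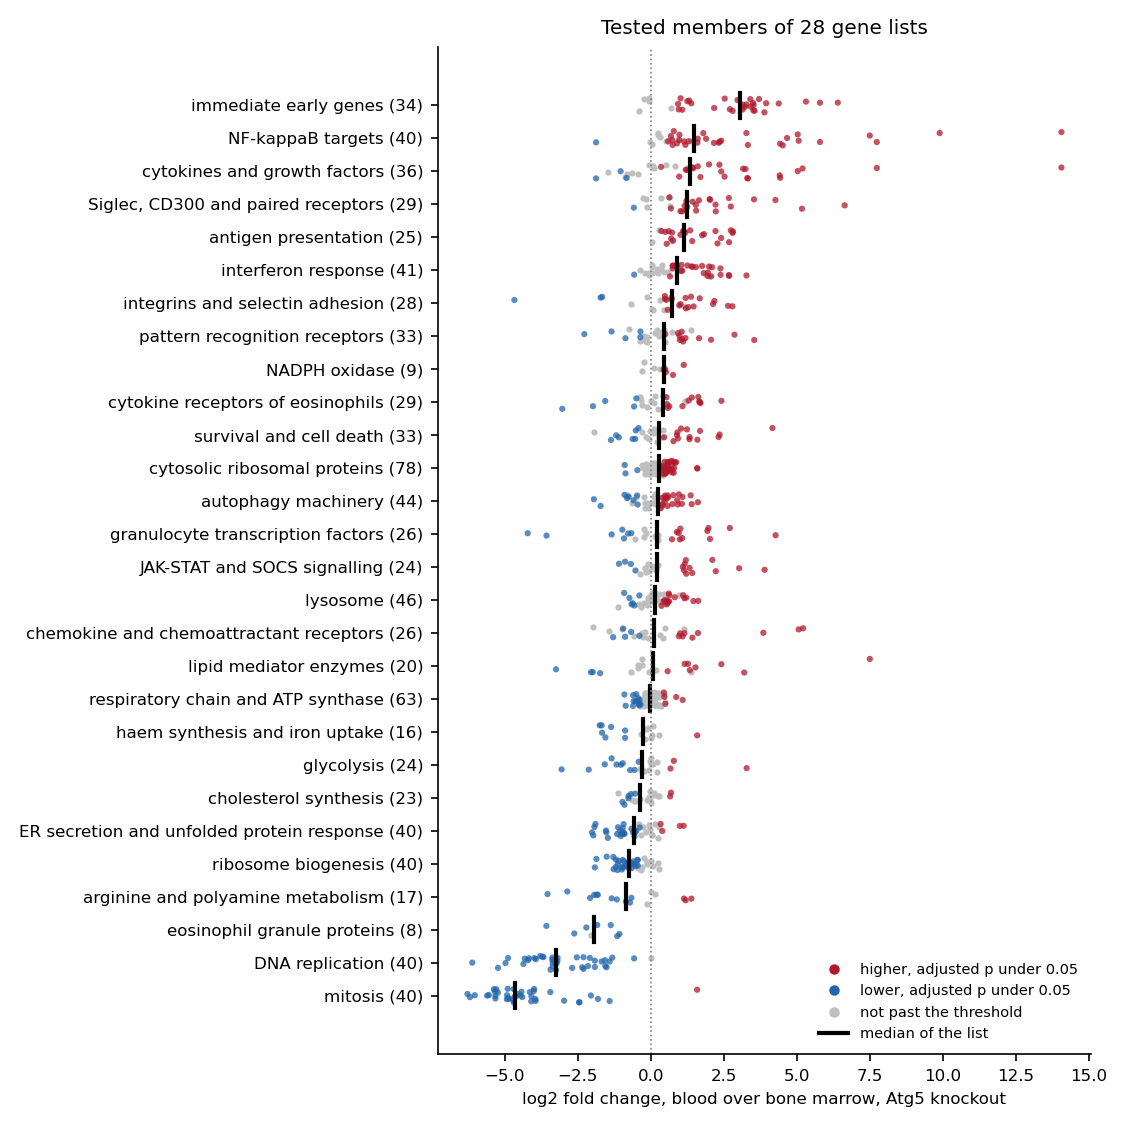
For each gene list, the log2 fold change of every tested member (points) and the median (bar), blood over bone marrow in Atg5-knockout mice, with lists ordered by median and points coloured by call. Mitosis at -4.64 is the lowest pathway median and immediate early genes at 3.06 the highest.

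Inhibitory and activating surface receptors of the Siglec, CD300 and paired families were higher, with a median of 1.25. Of 29 tested members 22 were higher and 1 lower (75.9% and 3.45%, against 23.5% and 24.1% of all genes). Cd300c2 had 62.7, 59.1 and 58.7 CPM in blood and 9.18, 8.42 and 9.43 CPM in bone marrow (log2 fold change 2.74, SE 0.13, edgeR adjusted p = 1.30e-06), and Cd300lf, an inhibitory receptor for lipids, had 542, 611 and 530.1 CPM in blood and 179.9, 193 and 205 CPM in bone marrow (log2 fold change 1.54, SE 0.12, edgeR adjusted p = 2.47e-05). Tissues were far apart and replicates close for both. Sirpb1a and Cd300e, activating receptors of myeloid cells, were higher at 3.53 ± 0.30 and 5.17 ± 0.37 (SE), from marrow levels under 2 CPM. Cd22, a Siglec of B cells, was led by blood replicate 1, with 51.1, 4.76 and 3.87 CPM in blood, and went from 4.27 to 2.06 without it. Members of the Pir and Sirpb1 families are near-identical, so their single values are uncertain.

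Antigen presentation genes were higher in 22 of 25 members (88%, against 23.5% of all genes), with none lower and a median of 1.14. For class I, B2m had 3141, 4503 and 5029.9 CPM in blood and 1205, 1152 and 1229 CPM in bone marrow (log2 fold change 1.82, SE 0.19, edgeR adjusted p = 9.80e-05), and the heavy chain H2-D1 had 3971, 4208 and 4258 CPM in blood and 1649, 1483 and 1754 CPM in bone marrow (log2 fold change 1.35, SE 0.13, edgeR adjusted p = 8.13e-05). Both were higher in every blood library, by 3.53-fold and 2.55-fold. For class II, the invariant chain Cd74 had 1889, 857 and 641 CPM in blood and 219, 194 and 225 CPM in bone marrow (log2 fold change 2.41, SE 0.36, edgeR adjusted p = 0.000706), and H2-Aa 601, 382 and 274 CPM in blood and 93.6, 80.3 and 96.5 CPM in bone marrow (log2 fold change 2.22, SE 0.26, edgeR adjusted p = 0.0002). Both were highest in blood replicate 1, the library with the most B cell markers. Without it Cd74 was at 1.81 (edgeR adjusted p = 7.30e-06) and H2-Aa at 1.86 (edgeR adjusted p = 9.52e-06), and blood stayed above marrow in all pairings. Cd80, a costimulatory ligand, was higher at 2.81 ± 0.29 (SE) and lowest in blood replicate 1.

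Interferon-stimulated genes were higher in 25 of 41 tested members and lower in 1. Their shares were 61.0% and 2.44%, against 23.5% and 24.1% of all genes, and the median was 0.90. Oasl2, an antiviral protein of the OAS family, had 86.1, 69.8 and 60.3 CPM in blood and 9.90, 14.9 and 16.4 CPM in bone marrow (log2 fold change 2.39, SE 0.22, edgeR adjusted p = 4.95e-05). Zbp1, a sensor of Z-form nucleic acids, had 81.8, 92.2 and 69.7 CPM in blood and 20.0, 21.9 and 21.7 CPM in bone marrow (log2 fold change 1.94, SE 0.14, edgeR adjusted p = 1.49e-05). Tissues did not overlap for either. Irf7, the factor that amplifies interferon production, and Isg15, a ubiquitin-like protein, had 1.76 ± 0.23 and 1.43 ± 0.26 (SE). Irf1 did not pass, at -0.07.

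Of 33 pattern recognition genes 12 were higher and 5 lower (36.4% and 15.2%, against 23.5% and 24.1% of all genes). Cd14, the coreceptor for lipopolysaccharide, had 63.2, 24.7 and 34.4 CPM in blood and 3.62, 3.58 and 3.29 CPM in bone marrow (log2 fold change 3.54, SE 0.34, edgeR adjusted p = 6.57e-05), highest in blood replicate 1. Naip5 and Nod1, sensors of bacterial products, were higher at 1.11 ± 0.13 and 0.99 ± 0.12 (SE), and Cgas, the sensor of cytosolic DNA, was lower at -2.27 ± 0.25. In the NADPH oxidase, which makes superoxide, 5 of 9 genes were higher (55.6%, against 23.5% of all genes) and none lower. Its median was 0.44. Cyba, the p22 subunit, was higher at 0.76 ± 0.16 (SE), and the calls for Cybb and Rac2 at 0.49 and 0.52 were lost when 1 library was left out (highest edgeR adjusted p = 0.0819 and 0.0745). With library size alone 2 of the 9 genes were higher and 2 lower.

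Survival and cell death genes showed 14 of 33 tested members higher and 7 lower (42.4% and 21.2%, against 23.5% and 24.1% of all genes). Pmaip1, the pro-death protein NOXA, had 243, 360.4 and 746 CPM in blood and 22.4, 24.9 and 27.9 CPM in bone marrow (log2 fold change 4.16, SE 0.39, edgeR adjusted p = 5.97e-05). Mcl1, the survival protein that NOXA binds, had 2029.6, 2499 and 2861 CPM in blood and 713, 685 and 899 CPM in bone marrow (log2 fold change 1.69, SE 0.18, edgeR adjusted p = 0.000109). Both were higher in all blood libraries, Pmaip1 with the wider spread. Birc3, an inhibitor of apoptosis, was higher at 1.60 ± 0.17 (SE), and Ripk3, a kinase of necroptosis, was lower at -1.36 ± 0.18. Bcl2 was lower at -0.62, a call lost when 1 library was left out (highest edgeR adjusted p = 0.116). In lipid mediator metabolism 8 of 20 tested members were higher and 4 lower (40% and 20%, against 23.5% and 24.1% of all genes). The median was 0.06, or -0.18 with library size alone. Pla2g7, which breaks down platelet-activating factor, had 1824, 2723 and 2833 CPM in blood and 527, 346 and 509 CPM in bone marrow (log2 fold change 2.42, SE 0.23, edgeR adjusted p = 6.22e-05). Hpgd, which inactivates prostaglandins, and Alox5ap, the partner of 5-lipoxygenase, were higher at 3.20 ± 0.25 and 1.53 ± 0.21 (SE), and the desaturases Fads1 and Fads2 were lower at -1.99 and -3.24.

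Lymphocyte and cytotoxic cell genes filled 8 of the 12 highest fold changes among genes with at least 10 CPM. Ccl5, a chemokine of NK and T cells, had 183, 162 and 168 CPM in blood and 0.794, 0.608 and 1.01 CPM in bone marrow (log2 fold change 7.74, SE 0.20, edgeR adjusted p = 3.18e-07), and Gzma, granzyme A, 259.9, 346 and 319.6 CPM in blood and 1.59, 1.66 and 2.54 CPM in bone marrow (log2 fold change 7.32, SE 0.24, edgeR adjusted p = 3.41e-07). Blood libraries were close to one another for both. Prf1, perforin, and Klra8 and Klra9, NK receptors of a near-identical family, had 7.48 ± 0.26, 7.25 ± 0.33 and 7.47 ± 0.59 (SE), and Cma1, listed as a mast cell chymase, 7.27 ± 0.34. Cd2, Gimap3 and the B cell gene Ms4a1 were led by blood replicate 1, and Ms4a1 had 165, 3.47 and 1.20 CPM there. Their log2 fold changes of 7.26, 7.91 and 8.41 became 5.88, 6.40 and 3.81 without it. All 12 tested T and NK cell markers, of 13 listed, were higher, with a median of 6.27, or 10 higher and 4.33 without blood replicate 1. Cd3e, with 517 counts in blood and 0 in marrow, was at least 236-fold higher if 3 counts are allowed to the marrow group. It passed the count filter through blood alone, so the count of higher members was partly set by the filter. Of 12 B cell markers 8 were higher (66.7%, against 23.5% of all genes). Ms4a1, with 3, 3 and 8 counts in marrow, passed the count filter through blood alone. The count of higher B cell markers was thus partly set by the filter too. Their median was 4.25, or 1.50 with 6 higher without blood replicate 1. The plasma cell gene Jchain did not follow that library, with 45.9, 53.5 and 56.5 CPM in blood and 1.62, 3.55 and 3.29 CPM in bone marrow (log2 fold change 4.20, SE 0.28, edgeR adjusted p = 9.03e-06). As a share of counts these markers reached at most 0.288% for B cells and 0.0649% for T and NK cells, and their part in the results above was not tested.

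Other cell types' markers differed as well. Of 12 listed stromal and endothelial genes 6 had enough counts to be tested. All 6 were lower in blood, with a median of -4.16 (-7.24 without blood replicate 1). Col1a2, a collagen chain, had 298 counts in marrow and 0 in blood (at least 72.5-fold lower), and Cxcl12, the marrow chemokine that binds CXCR4, had 222 and 0 (at least 54.0-fold lower). Both passed the count filter through marrow alone, so the count of lower members was partly set by the filter. Of 8 tested basophil and mast cell markers 5 were lower and 2 higher (62.5% and 25%, against 24.1% and 23.5% of all genes). Lower members included the protease Cpa3 at -2.17 ± 0.31 and the IgE receptor chain Ms4a2 at -1.85 ± 0.26 (SE). The 2 that were higher were Gzmb (6.45), also a gene of cytotoxic lymphocytes, and Cma1. With 3, 3 and 2 counts in marrow, Cma1 passed the count filter through blood alone. Among monocyte and macrophage markers 4 were higher and 4 lower (28.6% each, against 23.5% and 24.1% of all genes). Log2 fold changes of that list ran from -2.40 to 2.46. Of its members, Csf1r and Cx3cr1, named above, were at 1.66 and 1.43. Adgre1, the F4/80 antigen that eosinophils also carry, was at 1.20 ± 0.16. Of 14 tested red cell genes 9 were lower (64.3%, against 24.1% of all genes), with a median of -3.23. The lower ones belong to red cell precursors, such as the factor Klf1 (-5.45) and the membrane protein Rhag (-4.24), and both were highest in marrow replicate 2 (without it at -4.81 and -3.46). The globin genes did not pass, with Hbb-bs at 0.66. Platelet markers had 2 of 11 higher and 1 lower (18.2% and 9.09%, both under the shares of all genes). The calls for Ppbp (1.35) and Treml1 (1.37) were lost when 1 library was left out (highest edgeR adjusted p = 0.0939 and 0.181).

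The same comparison in control mice gave 2212 genes higher in blood (16.2% of the 13669 tested) and 2466 lower (34.2% in either direction). The 2 comparisons share no library. Across the 13406 genes tested in both, the log2 fold changes had Pearson's r = 0.892 and Spearman's rho = 0.860, as a description across genes, which are not independent replicates. Of the 3135 genes higher in knockout blood and tested in control, 98.4% had the same sign there and 60.7% also passed in that direction. Of the 3278 lower ones 97.9% had the same sign and 65.4% passed, and 2, Cdr2 and Trim10, passed in the opposite direction. Over all tested genes the shares were 85.6% and 85.3% for the same sign and 32.4% and 35.8% for also passing. The difference between the tissue effects of the 2 genotypes passed edgeR's test for 0 of 14712 genes, where 274 on the higher and 466 on the lower side had an unadjusted p under 0.05. Its lowest adjusted p was 0.406. Limma-voom also called 0 (262 and 409 by the same unadjusted measure). DESeq2 called 11, of which 3 were higher and 8 lower. They were chosen here as the complete set of its calls and are Gm9967, Kel, E230016K23Rik, Tmod1, Slfn14, Ces2g, Ptger4, Itga2b, Mtfr2, Col5a1 and Cemip2. Kel and Tmod1 are red cell genes. Kel, Tmod1 and Slfn14 were led by single libraries. Control blood had 126, 7 and 23 counts for Kel, 111, 5 and 3 for Tmod1 and 47, 0 and 5 for Slfn14. In knockout marrow all 3 genes were highest in replicate 2, at 189, 42 and 171 counts. Other genes of the 11 were not led by 1 library. Gm9967, of the lowest DESeq2 adjusted p (0.000404), had 85, 103 and 131 counts in knockout blood and 8, 12 and 8 in control blood. In marrow it had 44, 32 and 36 in knockout and 36, 26 and 43 in control. Ptger4 had 480, 400 and 432 counts in knockout blood and 246, 313 and 262 in control blood. Its marrow counts were 1136, 1041 and 1205 in knockout and 1661, 1516 and 1611 in control.

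**Figure D5:**
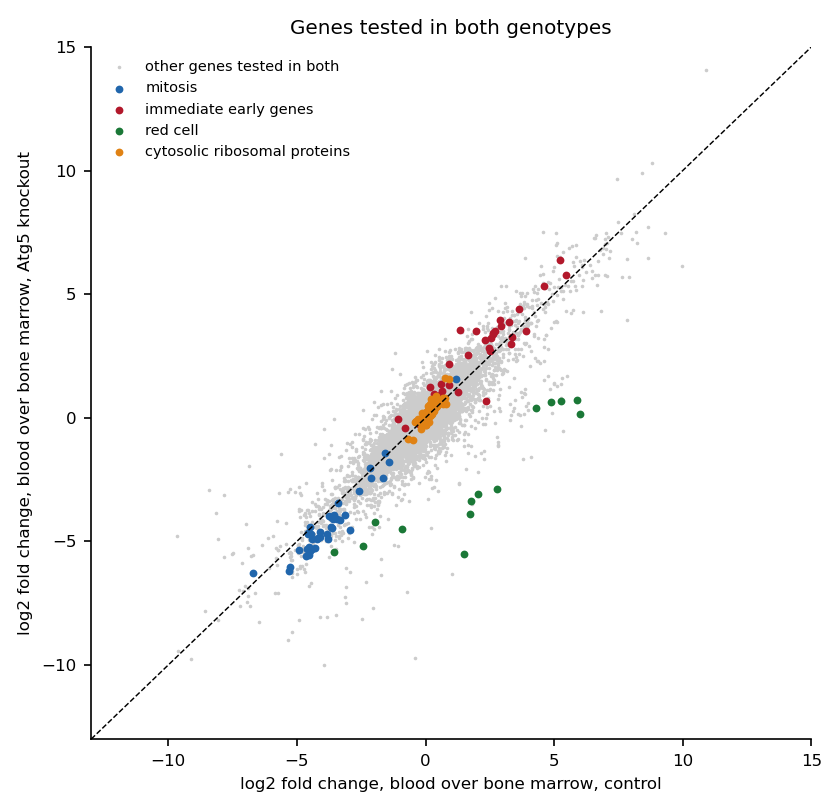
Log2 fold change, blood over bone marrow, of each gene tested in both genotypes, with Atg5 knockout on the vertical and control on the horizontal axis and 4 lists in colour. The 13406 genes had Pearson's r = 0.892, and red cell genes lie off the diagonal, with higher values in control.

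The counts per list in control mice stood beside those in knockout mice as follows, without a test of their difference. Mitosis had 39 of 40 lower in both genotypes, DNA replication 37 against 39, granule proteins 7 against 7 and ribosome biogenesis 23 against 28. Immediate early genes had 24 higher against 29, NF-kappaB targets 28 against 31, antigen presentation 16 against 22, integrins 17 against 18 and autophagy genes 14 against 21. Over all tested genes 34.2% were called in control and 47.6% in knockout. List medians in control and knockout were -3.95 and -4.64 for mitosis, -3.03 and -3.23 for DNA replication and -1.40 and -1.94 for granule proteins. For ribosome biogenesis they were -0.87 and -0.75, for immediate early genes 2.41 and 3.06, and for NF-kappaB targets 1.29 and 1.48. Antigen presentation had 1.12 and 1.14, integrins 0.94 and 0.71, and autophagy genes 0.27 and 0.25. Epx had a log2 fold change of -2.70 ± 0.33 in control and -3.57 ± 0.25 in knockout (SE), and Map1lc3b 1.50 ± 0.15 and 1.61 ± 0.13. Egr1 had 1.36 ± 0.50 (edgeR adjusted p = 0.0631) in control against 3.55 ± 0.15 in knockout (SE), and the difference of 2.17 did not pass (edgeR adjusted p = 0.852). The ribosomal protein list had 4 higher and 2 lower in control, against 30 and 3, but 33 higher and 2 lower in control without blood replicate 1. The red cell list differed in direction, with 5 higher, 1 lower and a median of 1.90 in control. One control blood library, replicate 1, had 14.6% of its counts on red cell genes, and without it the list had 5 higher and 4 lower with a median of -0.60. Platelet markers had 10 of 12 higher and a median of 3.36 in control, or 9 and 1.79 without that library. In knockout they had 2 of 11 higher and a median of 0.75. Cytokines had 16 higher, 6 lower and a median of 0.60 in control, against 22, 3 and 1.34. Interferon-stimulated genes had 17 higher and a median of 0.54 in control, against 25 and 0.90.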

How the data were processed

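RNA of 12 eosinophil libraries, 3 for each genotype and tissue, was sequenced, per the Methods, from stranded mRNA kits as single-end reads. Per the file header, reads were aligned to GRCm38 with the Ensembl release 92 annotation and counted with featureCounts 2.0.1, and the authors deposited the raw counts per gene without normalization. HISAT2 2.2.1 was the aligner. The header's command sets the option for paired ends, against the Methods, so whether a count is a read or a fragment was not settled. It sets no option for strand or multiply mapped reads, so genes overlapping on opposite strands are not separated and reads with several places are not counted, which lowers gene families with near-identical copies. The Methods name a GRCm39 annotation instead. Coordinates here are the table's. Of 53801 identifiers, 49674 matched a GENCODE symbol.

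The 6 Atg5-knockout libraries were fitted with edgeR 4.0.16 in R 4.3.3 (TMM, filterByExpr with a minimum count of 10 and a minimum total of 15, quasi-likelihood test, prior count 0.125), with Benjamini-Hochberg adjustment over all genes tested. Control libraries were fitted likewise, and the difference between genotypes was an interaction over 12 libraries. Fold changes are log2, blood over marrow. Marker shares were compared by exact permutation. The 28 pathway and 10 marker lists were described by counts and medians beside all genes. The comparison and its lists were chosen with earlier results of these data known. Full values are given for 12 genes of largest change in each direction (past a log2 fold change of 2 and 10 CPM, without overlap), the 4 members of lowest p in each list, Atg5, Arg2 and the 10 genes of highest CPM, except that a few of them are not reported here. List members named beyond these, and genes outside the lists, were chosen after their values were seen. Promoters come from RefSeq on GRCm38.p6, and motifs were sought on both strands of 250 bases before each start. The fit was tested on simulated counts. Alternatives were DESeq2 1.42.0, limma-voom 3.58.1, all 12 libraries, other scalings, other filters, a replicate block and leaving out each library. Intervals cover counting error only. Alignment and counting were not repeated.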

Additional observations from a re-analysis of the deposited data

How the results depend on the processing

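Of 169 named genes, 154 kept their direction and their side of the threshold under every alternative run. Beside 3256 higher and 3336 lower genes, DESeq2 gave 3478 and 3510, limma-voom 3238 and 3664, all 12 libraries 3017 and 3242, and no filter 3146 and 3685. Same-numbered blood and marrow libraries correlated at -0.105, -0.057 and 0.043 in their deviations, and no source used here pairs them, so they were not treated as pairs, and the fit with a replicate block gave 2800 and 3117. With library size alone the medians of log2 fold changes were 0.050 for ribosomal proteins, -0.26 for the respiratory chain, -0.52 for glycolysis, -0.82 for ER secretion, 0.0317 for autophagy, -0.0783 for lysosome, 0.000843 for transcription factors, -0.12 for chemoattractant receptors, 0.48 for integrins, 0.19 for cytokine receptors, -0.00670 for JAK-STAT, 1.28 for NF-kappaB targets, 0.91 for antigen presentation, 0.0631 for survival, -0.18 for lipid mediators, 0.22 for pattern recognition, 0.21 for NADPH oxidase and -1.07 for arginine metabolism, following the shift of all genes. Without a filter autophagy had 0.19. The small median of chemoattractant receptors was -0.14 without a filter, -0.0860 in DESeq2, 0.31 with 12 libraries, 0.34 with a filter of 1 CPM and -0.0798 with other cell types' markers left out before scaling. Stromal markers had -3.75 in DESeq2, -5.00 in limma-voom and -4.50 with the replicate block, and eosinophil identity markers 0.36 with granule genes left out, since most of their members were then gone. When each library was left out in turn, medians ran from -0.46 to -0.0481 for cholesterol synthesis, 0.23 to 0.29 for autophagy, -0.0476 to 0.25 for chemoattractant receptors, 1.38 to 1.54 for NF-kappaB targets, 0.24 to 0.48 for pattern recognition, 1.50 to 4.51 for B cell, 4.33 to 6.47 for T and NK cell and -7.24 to -3.71 for stromal markers. The blood minus marrow share of red cell genes ran from -0.00176 to 0.261 percentage points, below 0 without marrow replicate 3. Control calls ran from 1163 (without marrow replicate 3) to 2808 (without blood replicate 1) higher and from 1464 to 3118 lower. DESeq2 called 3 higher and 8 lower in the difference between genotypes, where edgeR called 0. Eef1a1, at 0.01, was at -0.00116 with 12 libraries, -0.00451 with upper quartile factors, -0.21 with library size alone, -0.0504 without a filter, and between -0.0757 and 0.0575 when 1 library was left out. The cause was not tested where the setting's construction does not give it. Depth limits genes under 3 CPM, where a few counts set the fold change.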

Other observations

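Of the genes of highest CPM outside the granule proteins, some differed between the tissues of Atg5-knockout mice and others did not pass. Srgn, the proteoglycan core of the granule matrix, had 4079, 6115 and 7410.0 CPM in blood and 1198, 1251 and 1341 CPM in bone marrow, without overlap (log2 fold change 2.22, SE 0.22, edgeR adjusted p = 7.75e-05), opposite in direction to the granule proteins. Tmsb4x, which binds free actin, had 11297, 20927 and 19401 CPM in blood and 8971, 8198 and 9196 CPM in bone marrow (log2 fold change 0.97, SE 0.23, edgeR adjusted p = 0.0074), and Actb, cytoplasmic actin, 11897, 15992 and 21272 CPM in blood and 9417, 8889 and 10305 CPM in bone marrow (log2 fold change 0.78, SE 0.21, edgeR adjusted p = 0.0149). The call for Actb was lost when 1 library was left out (highest edgeR adjusted p = 0.0688). Cd24a, a heavily glycosylated surface protein, was higher at 1.42 ± 0.25 (SE), with 5503, 8071 and 11182 CPM in blood and 2999.9, 2788 and 3481 CPM in marrow. Eef1a1, the elongation factor that brings tRNA to the ribosome, had 5205, 4376 and 4356 CPM in blood and 4669, 4518 and 4613 CPM in bone marrow and did not pass at 0.01, with overlapping libraries, and S100a9, an abundant calcium-binding protein of neutrophils, had 7081, 2991 and 1690.2 CPM in blood and 6911, 6309 and 7762 CPM in bone marrow, highest among blood libraries in replicate 1, and did not pass (log2 fold change -0.83, SE 0.43, edgeR adjusted p = 0.136).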
